A study of Homo sapiens with 30 samples.

Results

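The change in gene expression that miR-1 overexpression produced in common in MV4-11 and Molm-14 cells was described from all 12 libraries of the overexpression series, of 30 libraries in the whole study. Both are human acute myeloid leukemia (AML) cell lines that carry the FLT3-ITD mutation. The overexpressing cells (OE) carried a lentiviral vector with an EF1α promoter, a GFP marker and sequence of the MIR1-2 host gene. The controls (EV) carried a GFP lentivirus without the miRNA insert, so GFP and transduction were shared by all 4 groups of 3 libraries. The sources do not say whether the 3 replicates of a group were separate transductions or cultures of 1 transduced population, so the p-values measure only the spread between these libraries, which may be technical. OE was compared with EV with cell line as a second term in the model, which gives the average effect over both lines, and the effect in each line and its difference between lines were fitted beside it. Of 60675 genes in the table, 17542 passed the filter on low counts, and 17214 of these had counts in both lines.

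MicroRNAs are short RNAs that, loaded on an Argonaute protein, pair with messenger RNAs and lower their stability or translation. Most pairing that matters lies between the seed, bases 2 to 8 of the miRNA, and a match in the 3′ untranslated region (UTR). miR-1 is best known from heart and skeletal muscle, where it is transcribed together with miR-133a. The mature strand is shown because every seed match described later holds the reverse complement of its capital letters, or of all but the last of them. In an 8mer and a 7mer-A1 this stretch is followed by an A. Sequences of the miRNA came from RefSeq on GRCh38.p14, and those of the UTR sites from GRCh38 through the GENCODE 44 annotation.

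hsa-miR-1-3p: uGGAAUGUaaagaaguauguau

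Sites are named by their letters: an 8mer is ACATTCCA, a 7mer-m8 is ACATTCC, a 7mer-A1 is CATTCCA and a 6mer is CATTCC, each gene being placed by the best of these on the sense strand of its UTR. The following sites belonged to genes that were lower in OE in both lines, with the matching bases in capitals.

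DDHD1, 8mer, chr14:53039661-53039686, minus strand: tttgttacagcaaactACATTCCAtt
ENTPD7, 8mer, chr10:99707558-99707583, plus strand: tggtgtcataaaattcACATTCCAct
SRC, 7mer-m8, chr20:37404990-37405015, plus strand: cctcatcatagcaataACATTCCcac
RBM47, 7mer-m8, chr4:40424000-40424025, minus strand: cctttaagcaccgctaACATTCCttt
LRP1, 7mer-m8, chr12:57213165-57213190, plus strand: agacttcctctggtaaACATTCCtcc
PTPN4, 7mer-m8, chr2:119978074-119978099, plus strand: attgttcaaaatctgcACATTCCttt

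Total counts ran from 15543301 to 20939985 per library, and where a library had no read of a gene, up to 3 counts remain possible (counting error only). Pairs of replicates differed by more than sampling noise (chi-square per degree of freedom 2.09 to 15.8), and all libraries were kept. Interferon-stimulated genes set apart 1 library of each MV4-11 group, with a mean of 4.96 log2 CPM in OE replicate 1 and 3.38 in EV replicate 3 against 1.79 to 2.04 in the other MV4-11 libraries, and results are given without this pair where it changed a call. All 12 genes of the myeloid AML marker list were detected and all 5 erythroid markers were at 0. Of 8 T and B cell markers only CD3G was at 0 in every library, and their summed CPM was 104 to 120 in Molm-14, in OE and EV alike, and 2.94 to 10.3 in MV4-11.

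The transcript that the vector carries was the first check of the labels. MIR133A1HG, the host transcript of miR-1-2 and miR-133a-1 (ENSG00000265142, lncRNA, chr18:21825487-21831539, minus strand), was counted 44, 50 and 73 times in the OE libraries of MV4-11 and 60, 44 and 34 times in those of Molm-14. All 6 EV libraries had 0. Against a floor of 3 counts in each EV library, the OE level was at least 18.7-fold higher in MV4-11 and, in Molm-14, at least 14.3-fold higher (average FDR = 1.9e-07, edgeR quasi-likelihood test). The hairpin genes MIR1-1, MIR1-2 and MIR133A2 had 0 counts in all 12 libraries, and these libraries were not made for mature miRNAs. MIB1, the ubiquitin ligase gene that contains MIR133A1HG on its opposite strand, differed by 0.03 log2 (SE 0.031, FDR = 0.999).

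Few genes changed on average over both lines. At a false discovery rate (FDR) under 5%, 9 genes were called, 0.0513% of those tested, with 3 higher (0.0171%) and 6 lower (0.0342%) in OE, and 7 of the 9 had counts and the same sign in both lines. At an unadjusted p under 0.05 there were 842 genes (4.80%), 432 higher (2.46%) and 410 lower (2.34%). Of the 17214 genes with counts in both lines, 8628 (50.1%) had the same sign in both, 4615 higher and 4013 lower, and 8586 had opposite signs. Genes at an unadjusted p under 0.05 in each line separately numbered 39 with the same sign (0.222%; 23 higher and 16 lower) and 41 with opposite signs (0.234%). This balance of 39 against 41 moved with single libraries of either line. It was 78 against 48 without MV4-11 OE replicate 1 and 35 against 95 without MV4-11 OE replicate 2. Without Molm-14 OE replicate 1 it was 35 against 18, and without Molm-14 OE replicate 3 it was 31 against 31. Without the pair high in interferon-stimulated genes it was 115 against 53.

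A count that does not rest on the model was slightly larger for shared directions. In 150 genes (0.855%) the CPM of OE and EV libraries did not overlap in either line and OE lay on the same side in both, 81 higher and 69 lower. In 101 genes (0.576%) they did not overlap in either line and OE lay on opposite sides. The difference between these counts was not tested.

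**Figure D1:**
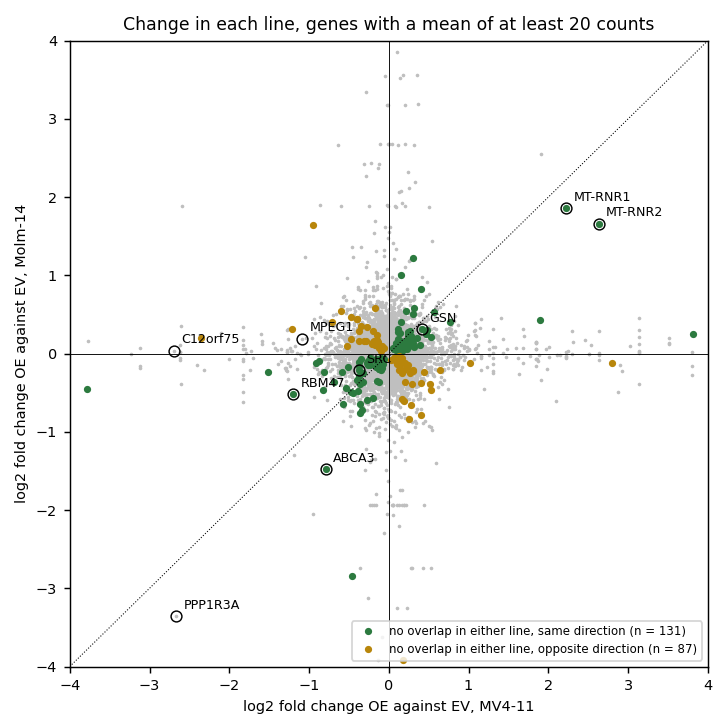
Log2 fold change of OE against EV in MV4-11 (x axis) and in Molm-14 (y axis) for the 14375 genes with counts in both lines and a mean of at least 20 counts, of which 12 lie outside the axes. Green points (131) are genes whose OE and EV libraries do not overlap in either line with the same direction, ochre points (87) those with opposite directions, and rings mark named genes; the cloud has no visible slope along the dotted diagonal.

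Besides the vector transcript, only GSN and MT-RNR1 among the called genes were separated from EV without overlap in both lines. GSN encodes gelsolin, which severs and caps actin filaments (ENSG00000148180, chr9:121207794-121332843, plus strand). Its CPM was 158, 149 and 141 in MV4-11 OE against 123, 94.2 and 120 in MV4-11 EV. In Molm-14 it was 160, 164 and 158 in OE against 128, 135 and 125 in EV. Every OE library of both lines was thus above every EV library. The average log2 fold change of GSN was 0.36 (SE 0.054, FDR = 0.00866), made of 0.41 in MV4-11 and 0.31 in Molm-14, and the difference between lines was 0.10 (SE 0.11, FDR = 1). In bulk libraries a change in the share of cells and a change per cell cannot be told apart. Without MV4-11 OE replicate 2 the FDR of GSN was 0.0546, and without the pair high in interferon-stimulated genes it was 0.0555. GSN was also not called in the fit on genes averaging 100 or more counts, which called no gene.

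GSN was the only called gene of its family. Among the other proteins with gelsolin repeats, a list added after the values had been seen, FLII, a gelsolin-related regulator of actin and transcription, differed by 0.04 log2 (SE 0.035, FDR = 0.999). Of the 6 members tested, 4 had a higher and 2 a lower average, and GSN was the only one past an unadjusted p under 0.05.

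MT-RNR1 and MT-RNR2, the small and large ribosomal RNAs of the mitochondrial genome, were higher in every OE library of both lines than in any EV library. MT-RNR1 (ENSG00000211459, chrM:648-1601, plus strand) had 64, 41.6 and 43.9 CPM in MV4-11 OE against 11.2, 10.3 and 10.4 in EV. In Molm-14 it had 50.1, 44.8 and 72.8 CPM in OE against 16.5, 8.49 and 20.9 in EV. Its average log2 fold change was 2.04 (SE 0.23, FDR = 0.0176), with 2.23 in MV4-11 and 1.86 in Molm-14. MT-RNR2 had 186, 97.7 and 101 CPM in MV4-11 OE against 23, 21.8 and 17 in EV. In Molm-14 MT-RNR2 had 70.7, 64.7 and 112 CPM in OE against 27.1, 17 and 33.6 in EV. Its average of 2.15 (SE 0.30) was not past the threshold (FDR = 0.0700). The OE libraries of MV4-11 and Molm-14 reached like levels of MT-RNR1, while MT-RNR2 was highest in MV4-11 OE replicate 1.

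The 2 mitochondrial rRNAs were summed as a class after their values had been seen, so the sum is a description. It was 109 to 250 CPM in the 6 OE libraries and 25.5 to 54.6 CPM in the 6 EV libraries, at most 0.026% of a library. Nuclear rRNA overlapped between OE and EV in both lines, at 1.40 to 2.24 CPM in MV4-11 and 1.05 to 3.99 in Molm-14. The 13 mitochondrial messenger RNAs and the mitochondrial tRNAs were separated in Molm-14 only. There the messenger RNAs summed to 35443 to 38537 CPM in OE against 28849 to 32033 in EV, and the tRNAs to 209 to 217 against 183 to 196. In MV4-11 the messenger RNAs overlapped, at 25820 to 43931 CPM in OE and 33164 to 41159 in EV, and so did the tRNAs, at 140 to 185 and 139 to 181. The library kit removes ribosomal RNA, so these are the counts left after depletion, and the part of depletion in the difference was not tested. Of the 12 fits without 1 library, 8 did not call MT-RNR1 (all but those without MV4-11 OE replicate 1, Molm-14 OE replicate 2 or Molm-14 EV replicate 2 or 3, FDR up to 0.0946), nor did the fit without the pair high in interferon-stimulated genes (FDR = 0.0649).

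**Figure D2:**
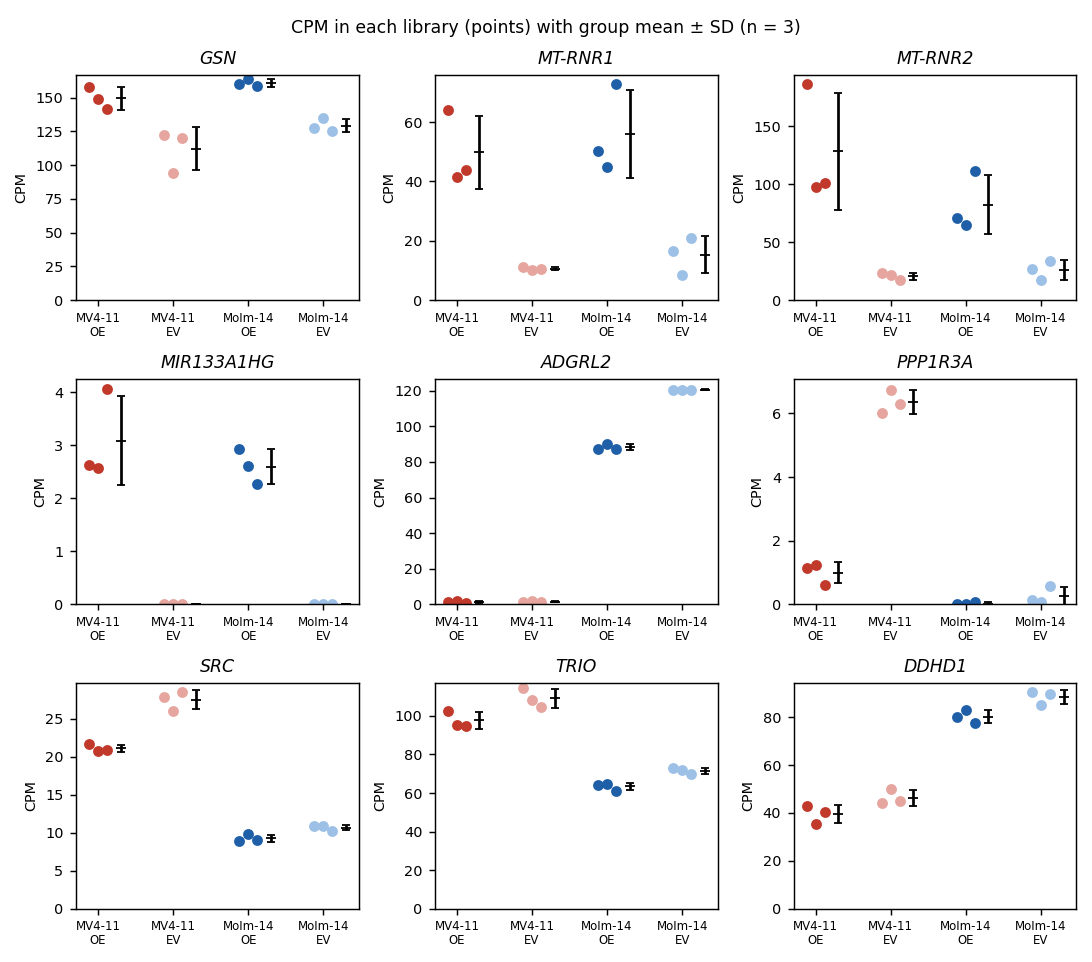
CPM of 9 genes in each library (points, y axis from 0) for OE and EV in both lines, with the group mean and SD (black, n = 3). GSN, MT-RNR1 and MT-RNR2 lie higher in OE in both lines, ADGRL2 is separated only in Molm-14 and PPP1R3A only in MV4-11, and SRC, TRIO and DDHD1 lie lower in OE in both lines without overlap.

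Of the 6 genes called lower on average, only PPP1R3A had an effect with an unadjusted p under 0.05 of the same sign in both lines. PPP1R3A, a subunit that targets protein phosphatase 1 to glycogen, had 19, 24 and 11 counts in MV4-11 OE against 104, 140 and 107 in EV. In Molm-14 PPP1R3A had 0, 0 and 1 counts in OE against 2, 1 and 10 in EV, where the groups touch at 1 count. Its log2 fold change was -2.67 in MV4-11 (SE 0.34) and -3.35 in Molm-14 (SE 1.22, unadjusted p = 0.00589, FDR = 1), for an average of -2.71 (SE 0.32, FDR = 0.000161). PPP1R3A was called in all 21 other fits that tested it, the one with equal weight for both lines included. None of its relatives was called, which is near the 0.0513% called among all genes tested. Of the 6 glycogen-targeting subunits tested, a list added after the values had been seen, 3 had a higher and 3 a lower average.

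GLT1D1, a predicted glycosyltransferase, had 5, 4 and 7 counts in MV4-11 OE against 47, 60 and 12 in EV, and 1 count in all in Molm-14 (average -2.79 log2, SE 0.50, FDR = 0.0242). GLT1D1 was not called in 8 of the 12 fits without 1 library (all but those without MV4-11 EV replicate 3, Molm-14 OE replicate 2 or Molm-14 EV replicate 2 or 3, FDR up to 0.331). MAGED1, a MAGE family protein that takes part in p75 neurotrophin receptor signalling, had 38, 45 and 44 counts in MV4-11 OE against 174, 215 and 133 in EV, with 0 to 2 counts in every Molm-14 library (average -1.94 log2, SE 0.25, FDR = 0.000499). The sign in Molm-14 rests on 1 count for GLT1D1 and on 4 for MAGED1.

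DIPK1C, a protein with a divergent kinase domain, and FAM30A, a long noncoding RNA, had no counts in Molm-14, so their average is that of MV4-11. DIPK1C had 25, 35 and 31 counts in MV4-11 OE against 303, 322 and 243 in EV (-3.22 log2, SE 0.20, FDR = 2.18e-07), and its UTR held an 8mer. FAM30A had 1, 1 and 0 counts in OE against 15, 23 and 33 in EV (-4.67 log2, SE 0.79, FDR = 0.0176), and 4 of the 12 fits without 1 library did not call it (those without MV4-11 OE replicate 2 or 3 or EV replicate 2 or 3, FDR up to 0.147). A fit that gave both lines equal weight called neither these genes nor GLT1D1 and MAGED1.

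ADGRL2, an adhesion G protein-coupled receptor of the latrophilin family, was the reverse case. In Molm-14 it had 87.2, 90.4 and 87.5 CPM in OE against 121, 120 and 121 in EV, a clear gap (-0.45 log2, SE 0.076). In MV4-11 it had only 13 to 36 counts a library and the groups overlapped (-0.22 log2, SE 0.22). The average of ADGRL2 was -0.42 (SE 0.072, FDR = 0.0176), and leaving out any of the 6 Molm-14 libraries ended the call (FDR up to 0.220), as did equal weight for both lines (FDR = 0.637). ADGRL1, a second latrophilin, had an average of 0.14 log2 (SE 0.055, FDR = 0.875).

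Among genes not called, 128 with a mean of at least 20 counts had the same sign and no overlap in both lines. From the 10 with the smallest unadjusted p in each direction, 19 genes are described here; since they were picked for that pattern, it is no support for them, and their FDR ran from 0.0700 to 0.444. Besides MT-RNR2, those higher in OE included MPO, AZU1 and GM2A. MPO, the myeloperoxidase of primary granules, had 8.36, 9.55 and 10.1 CPM in MV4-11 OE against 7.82, 7.67 and 6.48 in EV. In Molm-14 MPO had 58.7, 63 and 54.3 CPM in OE against 52.5, 46.7 and 53.9 in EV (average 0.25 log2, SE 0.067). AZU1, the antimicrobial granule protein azurocidin, had 656 to 706 CPM in MV4-11 OE against 565 to 640 in EV and 1239 to 1268 in Molm-14 OE against 1170 to 1190 in EV (average 0.14 log2, SE 0.035). GM2A, the lysosomal activator of ganglioside breakdown, averaged 0.18 log2 (SE 0.046).

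For all 6 primary granule proteins listed (a list added after these values had been seen) the average was above 0, with a median of 0.13 log2 against 0.005 over all genes tested. For 3 of them the unadjusted p was under 0.05 (2.46% of all genes were higher at that p), but MPO and AZU1, which prompted the list, are 2 of these. None was called (0.0513% of all genes tested were), and 4 had the same sign in both lines. Among the 12 myeloid AML markers 9 had a higher and 3 a lower average, and CSF3R, the receptor for granulocyte colony-stimulating factor, averaged 0.12 log2 (SE 0.042, FDR = 0.830).

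The remaining genes higher in both lines had varied roles. CYP4V2, a fatty acid hydroxylase, had 22.2 to 27.4 CPM in MV4-11 OE against 20.1 to 21.5 in EV and 71.2 to 78 in Molm-14 OE against 60.7 to 67.7 in EV (0.24 log2, SE 0.055). WDR91, which acts in endosome maturation, averaged 0.20 log2 (SE 0.047), and BACE1, the beta-secretase, 0.23 (SE 0.059). PLXNC1, a semaphorin receptor, averaged 0.16 (SE 0.042). ZFP36L2, which promotes decay of AU-rich mRNAs, averaged 0.13 (SE 0.032), and LINC02870, a noncoding RNA, 0.36 (SE 0.085).

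The genes lower in OE in both lines were likewise of varied roles. SRC, the tyrosine kinase, had 21.7, 20.8 and 20.9 CPM in MV4-11 OE against 27.9, 26.1 and 28.5 in EV. In Molm-14 SRC had 8.95, 9.77 and 9.05 CPM in OE against 10.9, 10.9 and 10.2 in EV (average -0.30 log2, SE 0.066, FDR = 0.195). TRIO, a guanine nucleotide exchange factor, had 95 to 103 CPM in MV4-11 OE against 105 to 114 in EV and 61.3 to 64.9 in Molm-14 OE against 69.7 to 72.8 in EV (-0.16 log2, SE 0.038). TRIO (FDR = 0.0203) and ZFP36L2 (FDR = 0.0389) were called when the pair high in interferon-stimulated genes was left out.

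RBM47, an RNA-binding protein, had 0.362 to 0.717 CPM in MV4-11 OE against 0.943 to 1.83 in EV and 4.74 to 5.72 in Molm-14 OE against 6.99 to 7.95 in EV (-0.72 log2, SE 0.18). DDHD1, a phospholipase that cleaves phosphatidic acid, had 35.3 to 42.7 CPM in MV4-11 OE against 44.1 to 50 in EV and 77.5 to 82.9 in Molm-14 OE against 85.2 to 90.8 in EV (-0.19 log2, SE 0.049). ABCA3, a lipid transporter of lysosome-related organelles, averaged -0.91 (SE 0.19), but had only 3 to 11 counts a library in Molm-14.

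CTSC, the protease that activates serine proteases of granules, averaged -0.15 (SE 0.036), and DLEU2, the host transcript of miR-15a and miR-16-1, -0.13 (SE 0.035). LHFPL2 averaged -0.66 (SE 0.15) and CRYBG1 -0.19 (SE 0.048). Of these 19 genes, the effect of BACE1, CTSC and CRYBG1 was past the FDR in MV4-11 alone and none was in Molm-14 alone. Over all genes tested 31 (0.177%) were past it in MV4-11 and 1 (0.0057%) in Molm-14. The 19 were picked for a lack of overlap in each line, so such calls follow partly from the choice. No difference between lines was called for any of the 19 (0.0456% of all genes tested were).

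**Figure D3:**
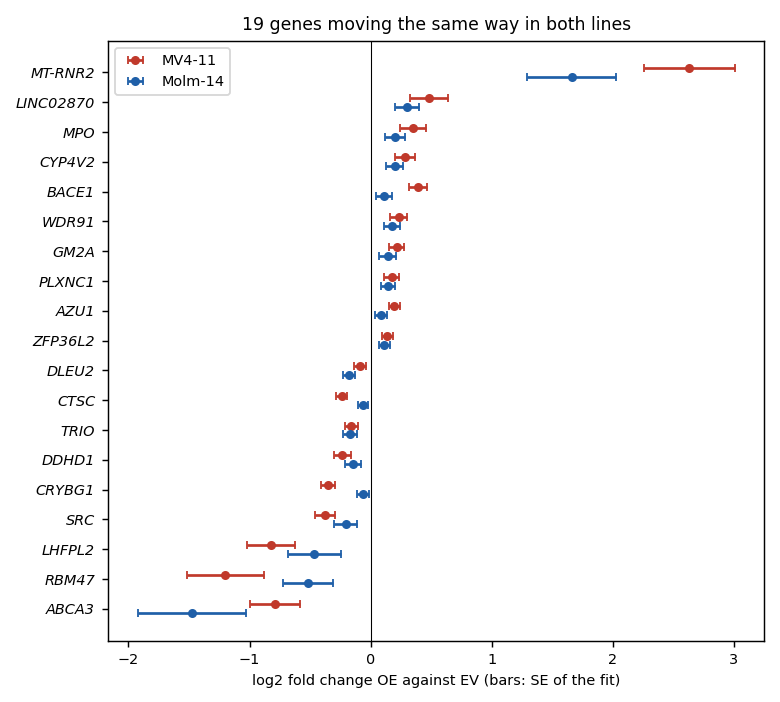
Log2 fold change of OE against EV (x axis, bars are the SE of the fit) in MV4-11 and Molm-14 for 19 genes that were not called but moved the same way in both lines without overlap, ordered by their average. All points lie on the side of 0 that the choice of genes fixed, and 16 of the 19 lie nearer 0 in Molm-14.

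Seed matches for miR-1 were then set against the average change, a property that the choice of these genes had not used. Of 12570 tested genes with an annotated 3′ UTR, 1643 (13.1%) held an 8mer or a 7mer-m8. Among the genes lower in both lines without overlap the number was 11 of 45 (24.4%), and among those higher in both lines 4 of 62 (6.45%). The lower genes with such a site were DDHD1, ENTPD7, SRC, RBM47, LRP1, PTPN4, APBB2, GNAQ, DIP2A, HACD2 and NSD3. The higher ones were SLC30A9, ANXA11, SCUBE1 and RASSF5. The lower genes also had longer UTRs, with a median of 2393 bases against 1187 in the higher genes and 1294.5 (the midpoint of the middle pair) in all, and longer UTRs hold more sites by length alone, so the site and the length cannot be told apart in these counts.

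The averages of these 11 genes ran from -0.72 for RBM47 and -0.30 for SRC, given before, to -0.07 for NSD3. LRP1, an endocytic receptor of the LDL receptor family, had an average of -0.44 log2 (SE 0.13), and APBB2, an adaptor that binds the amyloid precursor protein, -0.31 (SE 0.12). PTPN4, a tyrosine phosphatase, was at -0.20 (SE 0.073), and ENTPD7, a nucleotide phosphohydrolase, at -0.14 (SE 0.044). HACD2, an enzyme of fatty acid elongation, was at -0.10 (SE 0.043), and GNAQ, a G protein alpha subunit, at -0.09 (SE 0.032). The FDR of these 6 genes, from LRP1 to GNAQ, ran from 0.643 to 0.975.

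The shift with the seed over all genes was small on the log2 scale and was not tested. The median average log2 fold change was -0.0004 for 669 genes with an 8mer, 0.0028 for a 7mer-m8, 0.0059 for a 7mer-A1, 0.0061 for a 6mer and 0.012 for the 8075 genes with none. The share of genes below 0 followed the same order, from 50.1% with an 8mer through 48.3%, 45.6% and 45.3% to 43.0% with none, and was 44.3% over all genes with a UTR. The 8mer median lay 0.012 below that of genes without a match, and 0.0063 to 0.019 below when 1 library was left out. UTR length moved with the class, from a median of 3389 bases with an 8mer to 796 with none. Among genes with UTRs over 2114 bases, 51.3% of 487 with an 8mer and 47.9% of 1480 with none were below 0. Between 704 and 2114 bases the shares were 45.9% and 44.6%. Among shorter UTRs it was 49.0% of only 49 genes with an 8mer, and 39.9% of 3750 with none. The order of the classes did not hold within these lengths. The share for a 7mer-A1 was below that for none in long (47.7%), middle (43.9%) and short UTRs (37.1%). The share for a 6mer was below none in long (47.5%) and middle UTRs (43.3%) but not in short ones (41.6%). In middle UTRs the 7mer-m8 share (47.0%) was above that of the 8mer.

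**Figure D4:**
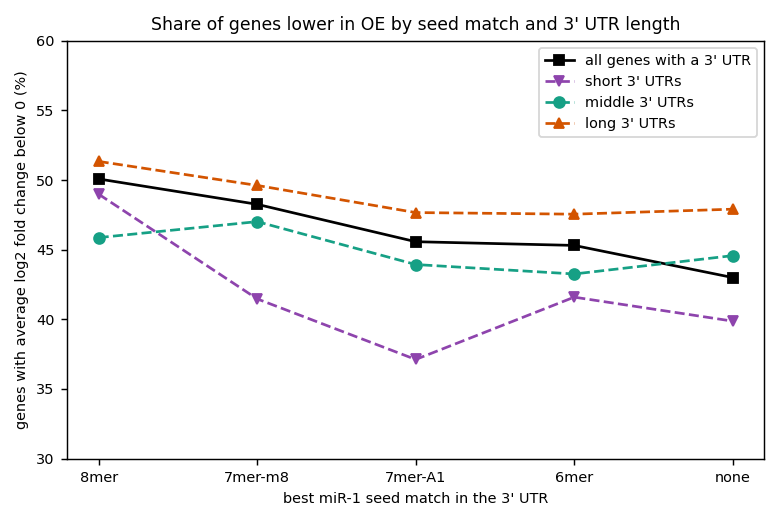
Share of genes whose average log2 fold change was below 0 (y axis, %, from 30 to 60) by the best miR-1 seed match in the 3′ UTR (x axis), for all 12570 genes with a UTR (black) and for short (up to 704 bases), middle and long (over 2114 bases) UTRs. The black line falls from 50.1% with an 8mer to 43.0% with none, and genes with long UTRs lie above those with short ones in every class.

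Established targets of miR-1 from other tissues lay on both sides of 0. Of 30 tested, 19 had a higher and 11 a lower average, with a median of 0.02 log2. None was called, which is near the 0.0513% called among all genes tested. Only BCL2, the inhibitor of apoptosis, reached an unadjusted p under 0.05. It had 427, 395 and 409 CPM in MV4-11 OE against 433, 453 and 447 in EV, and 209, 217 and 210 in Molm-14 OE against 232, 221 and 211 in EV. The groups overlapped in Molm-14, and the average was -0.09 log2 (SE 0.034, FDR = 0.859). CALM2, a calmodulin gene, averaged -0.06 (SE 0.035) and RASA1, a Ras GTPase activator, 0.08 (SE 0.052).

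The 2 predicted targets that the study's text names for MV4-11, which were chosen on these libraries, were not called on average. Others that the study tabulates were not examined as a list. SLC5A3, the sodium-dependent inositol transporter, fell by 0.27 log2 in MV4-11 (SE 0.049, FDR = 0.0225) and differed by -0.03 in Molm-14 (SE 0.050, FDR = 1), for an average of -0.15 (SE 0.043, FDR = 0.534). KDM5C, a histone demethylase, had -0.28 in MV4-11 (SE 0.060, FDR = 0.0698, so not past the threshold there either) and 0.06 in Molm-14 (SE 0.057). Neither difference between lines was called (FDR = 0.570 and 0.373). Among the 13 genes of miRNA processing and silencing, 3 had a higher and 10 a lower average (median -0.02). DICER1, which cuts miRNA precursors, averaged -0.06 (SE 0.039), and AGO4, an Argonaute, 0.07 (SE 0.040).

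Oxidative phosphorylation (OXPHOS), by which mitochondria make ATP, was the pathway of interest in both lines. Its genes showed many small averages above 0. Of 78 nuclear subunits, 66 had a higher and 12 a lower average, with a median of 0.03 log2 against 0.005 over all genes. Over all genes tested 9241 averages were higher and 8301 lower. Subunits with the same sign in both lines numbered 36 higher and 2 lower. Sharing a sign was thus no more common among them than over all genes with counts in both lines (50.1%, 4615 higher and 4013 lower). None of the 78 was called (0.0513% of all genes tested were). At an unadjusted p under 0.05 there were 5, all higher (6.41% of 78, beside 2.46% of all genes tested). None had OE and EV libraries without overlap and on the same side in both lines, which 0.855% of all genes had, so 0 of 78 is near that share.

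The complexes had like medians. Complex I had 30 of 37 averages above 0 (median 0.03), complex III 7 of 9 (0.05), complex IV 12 of 12 (0.04), complex V 14 of 16 (0.04) and complex II 3 of 4 (0.02). The 5 subunits were ATP5MC1, ATP5MC2 and ATP5PO of the ATP synthase (0.13, 0.09 and 0.13 log2) and UQCRC1 and UQCRC2, the core proteins of complex III (0.10 and 0.09). ATP5MC1 had 39.1 to 46.3 CPM in MV4-11 OE against 37.9 to 41.9 in EV and 68 to 73.6 in Molm-14 OE against 63.3 to 64.8 in EV, so it overlapped in MV4-11. NDUFS3 of complex I averaged 0.08 (SE 0.046), COX4I1 of complex IV 0.06 (SE 0.047) and SDHB of complex II 0.04 (SE 0.040).

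The OXPHOS averages moved with single MV4-11 libraries. The mean log2 CPM of the 78 subunits was 5.87, 6.18 and 6.09 in MV4-11 OE and 6.09, 6.03 and 5.95 in EV, so OE held both the lowest and the highest library. In Molm-14 it was 6.13, 6.10 and 6.14 in OE against 6.06, 6.12 and 6.05 in EV, also with overlap. The median log2 fold change was 0.0017 without MV4-11 OE replicate 2 and 0.074 without MV4-11 OE replicate 1. The 13 subunits that the mitochondrial genome encodes had opposite signs in the lines, with a median of -0.14 in MV4-11 and 0.34 in Molm-14, and none of them had the same sign in both. Their mean log2 CPM was 9.87, 10.8 and 10.3 in MV4-11 OE against 10.5, 10.7 and 10.3 in EV, so OE replicate 1 was the lowest, and the average median (0.10) was 0.23 without it and -0.0037 without OE replicate 2. MT-CYB of complex III, for example, differed by -0.09 (SE 0.19) in MV4-11 and 0.35 (SE 0.19) in Molm-14.

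No gene of pyruvate, glutamine or sugar use was called, which is near the 0.0513% called among all genes tested. Over the pyruvate carrier, pyruvate dehydrogenase and TCA cycle, 23 of 31 averages were above 0 (median 0.01), and 13 genes were higher and 5 lower with the same sign in both lines. IDH3G, a subunit of isocitrate dehydrogenase, averaged 0.10 (SE 0.041, FDR = 0.900), PDHA1 0.07 (SE 0.048) and SUCLG1, of succinyl-CoA ligase, -0.08 (SE 0.045). MPC1 and MPC2, the subunits of the mitochondrial pyruvate carrier, averaged 0.0031 (SE 0.063) and 0.01 (SE 0.046).

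For glutamine metabolism 9 of 22 averages were above 0 (median -0.03), and with the same sign in both lines 1 gene was higher and 9 were lower. The median was 0.00067 without MV4-11 OE replicate 3 and 0.0052 without MV4-11 EV replicate 3, so its sign rested on single libraries. SLC38A1, a glutamine importer, averaged -0.14 (SE 0.073) and GLUL, the glutamine synthetase, 0.06 (SE 0.038). For glycolysis and lactate export the median was 0.0067, and HK1, a hexokinase, averaged 0.13 (SE 0.055, FDR = 0.949).

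The other programmes held no called gene either, again near the 0.0513% called among all genes tested. For DNA replication and mitosis the median was -0.0059, with 19 higher and 30 lower, and POLA1, a DNA polymerase subunit, averaged -0.10 (SE 0.045, FDR = 0.981). For the ATF4 amino acid response the median was -0.04, with 0.03 in MV4-11 and -0.08 in Molm-14. This ATF4 median was -0.22 without MV4-11 OE replicate 1 and 0.21 without MV4-11 EV replicate 3, the same libraries that stood apart in interferon-stimulated genes, which held 5.92 and 5.94 mean log2 CPM of the ATF4 list against 4.15 to 4.98 in the other MV4-11 libraries. For cholesterol synthesis the median was 0.03, with -0.09 in MV4-11 and 0.17 in Molm-14, and it was -0.05 without MV4-11 OE replicate 1, -0.06 without MV4-11 EV replicate 2 and 0.15 without MV4-11 EV replicate 3. All 40 interferon-stimulated genes tested had averages above 0 (median 0.56), with medians of 0.97 in MV4-11 and 0.06 in Molm-14. Without MV4-11 OE replicate 1, the library highest in these genes, the median was -0.09, and without the pair it was 0.06. IFI35, the member with the smallest p, differed by 0.51 (SE 0.15) in MV4-11 and -0.01 (SE 0.15) in Molm-14.

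**Figure D5:**
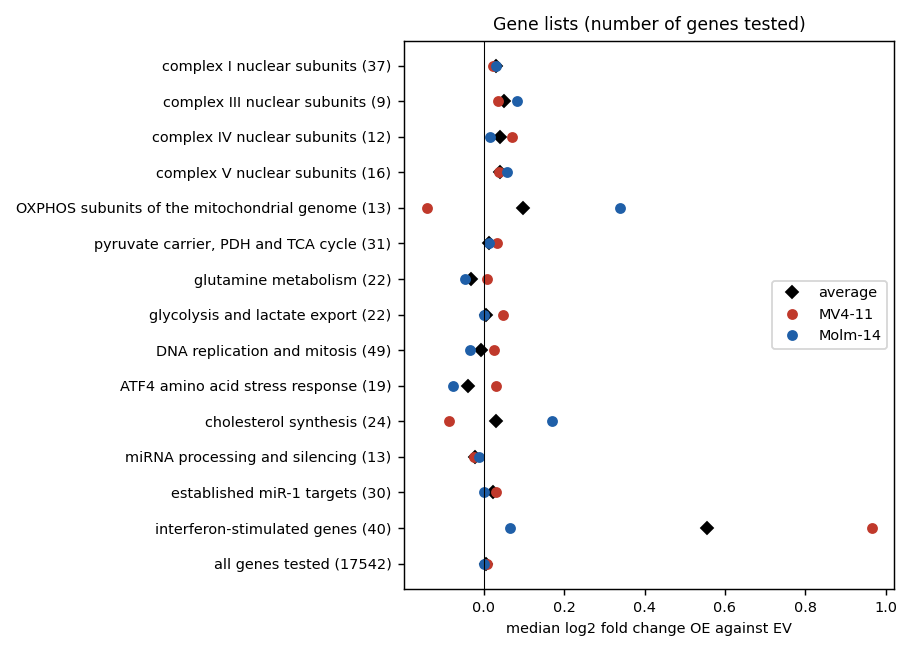
Median log2 fold change of OE against EV (x axis) over the tested genes of each list (number in parentheses) for the average over both lines (black diamonds), MV4-11 (red) and Molm-14 (blue), with all genes tested at the bottom. The nuclear OXPHOS complexes lie slightly above 0 in both lines, while the mitochondrially encoded subunits and cholesterol synthesis lie on opposite sides of 0 in the lines and the interferon-stimulated genes are far from 0 only in MV4-11.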

How the data were processed

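RNA was sequenced from 12 libraries of MV4-11 and Molm-14 cells (3 OE and 3 EV per line) after removal of ribosomal RNA with a stranded total RNA kit. Per the labels, the authors trimmed reads with cutadapt 1.16, aligned them to GRCh38 with STAR 2.7.6a, assigned them to genes with featureCounts 1.6.3 and tested them with DESeq2 1.30.1. The deposited values are raw counts per Ensembl gene, neither normalized nor filtered. Whether strand was used in counting is not given in the sources used here, so overlapping genes on opposite strands may share reads. The knockout libraries of the study were not used here.

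Genes were filtered with filterByExpr over the 4 groups and fitted with edgeR 4.0.16 in R 4.3.3 (TMM factors, robust quasi-likelihood) with cell line and treatment as additive terms. Effects per line and their difference came from a fit with a mean per group. P-values were adjusted over all genes by the Benjamini-Hochberg method, and an FDR under 5% was called. CPM use TMM-scaled library sizes. Alternatives were limma voom (limma 3.58.1), DESeq2 1.42.0, other scaling factors and filters, a replicate block and libraries left out. The fit was tested on simulated counts. Of 60675 gene IDs, 60419 were in GENCODE 44, which gave symbols, positions and the UTR of each canonical transcript.

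Named genes were those called, the 10 with the smallest p in each direction among uncalled genes averaging 20 or more counts with the same sign and no overlap in both lines, the 5 with the smallest p for the difference between lines, and up to 4 per list; genes with a seed match were named after their values were seen. A few genes that these rules name are not reported here. The 21 lists and these rules were chosen with earlier results of these data known, and 5 small lists were added after the values were seen. The remaining marker lists gave 5 of 8 muscle genes and 2 of 9 epithelial and fibroblast genes at 0 in all libraries, with the summed CPM at 1.80 to 4.86 and at 18.6 to 35.8.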

Additional observations from a re-analysis of the deposited data

Results flagged for a closer look

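The effect of OE differed between the lines for 8 genes (0.0456% of those tested; FDR under 5% for the difference, edgeR quasi-likelihood test), and 929 were at an unadjusted p under 0.05. The 5 with the smallest p are given as the log2 fold change in MV4-11 minus that in Molm-14. C12orf75 differed by -2.73 (SE 0.28, FDR = 9.32e-05): it had 1.19, 1.34 and 1.72 CPM in MV4-11 OE against 9.32, 9.36 and 8.95 in EV, while in Molm-14 the groups overlapped at 3.53 to 5.26. CPVL, a carboxypeptidase of macrophages, differed by -1.41 (SE 0.19, FDR = 0.00186), with 1.02 to 1.17 CPM in MV4-11 OE against 2.47 to 2.99 in EV and overlapping groups in Molm-14. MPEG1, the perforin of macrophages, differed by -1.28 (SE 0.17, FDR = 0.00186), with 52.5 to 69 CPM in MV4-11 OE against 128 to 134 in EV and 3.39 to 4.62 in all Molm-14 libraries. WASF1, an activator of actin branching, differed by -1.28 (SE 0.20, FDR = 0.0162), with an effect of -1.17 in MV4-11 and 0.10 in Molm-14. ADAMTS9, a secreted metalloprotease, differed by 4.21 (SE 0.72, FDR = 0.0134), but it had at most 0.62 CPM in MV4-11 and 54.4 to 60.8 in Molm-14, where the groups overlapped. For all 5 genes the groups overlapped in Molm-14 and did not in MV4-11.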

How the results depend on the processing

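The 9 genes with an average change numbered 5 to 11 when 1 library was left out, the fewest without MV4-11 OE replicate 2, 41 with no filter beyond 1 count, 0 among the 10945 genes averaging 100 or more counts (edgeR; 524 at an unadjusted p under 0.05) and 16 without the pair of MV4-11 libraries high in interferon-stimulated genes. DESeq2 called 12 and limma voom 10. The 8 genes whose change differed between lines numbered 4 to 9 with 1 library left out, with 4 or 5 without MV4-11 OE replicate 2, MV4-11 EV replicate 1 or any Molm-14 library, 33 with no filter, 13 by DESeq2, 1 by limma voom, 5 without the robust fit and 26 without the pair. Genes at an unadjusted p under 0.05 in each line with the same sign (39) numbered 31 to 78 with 1 library left out, the most without MV4-11 OE replicate 1, and 64 with no filter, 25 at an average of 100 or more counts and 115 without the pair. Those with opposite signs (41) numbered 18 to 95, the most without MV4-11 OE replicate 2, and 67 with no filter and 24 by DESeq2. The cause of these shifts was not tested, apart from the number of genes or libraries that each setting itself changes. Replicate numbers did not pair the samples: deviations of same-numbered OE and EV libraries correlated at -0.38 to 0.013. Between libraries of unlike number the correlations were -0.28 to 0.40 in MV4-11 and -0.032 to 0.056 in Molm-14. The highest were OE replicate 1 with EV replicate 3 (0.40) and OE replicate 3 with EV replicate 2 (0.31), both in MV4-11. The replicate block used the numbers as given, and a pairing under other numbers was not fitted. With the replicate block the 4 counts were 6, 2, 23 and 17.

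Of the named genes, 1676 refits kept the direction and the side of the threshold, 45 lost a call, 19 gained one and 10 changed sign. All changes of sign were in MPC1 and MPC2, whose averages lie near 0: MPC1 was at -0.0039 with upper quartile factors, -0.00092 with no filter, -0.0031 at an average of 100 or more counts, -0.0022 by limma voom, -0.024 without the pair and -0.045 to 0.036 with 1 library left out, and MPC2 at -0.0016 to 0.035 with 1 library left out. Medians of the lists and seed classes moved by less than the spread between single replicate libraries under all settings run for them. This bar is wide, since 1 library left out moves an average by only part of its own deviation, so staying under it says little. With 1 library left out, the median of the interferon-stimulated genes (0.56) still ran from -0.09 to 0.70. That of the ATF4 list (-0.04) ran from -0.22 to 0.21. Low counts limit the genes expressed in 1 line only.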
